A study of Arabidopsis thaliana with 27 samples.

Results

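Loss of the histone demethylase REF6 on top of loss of the chromatin remodeller BRM was examined here through H3K27me3 peak lists from Arabidopsis thaliana seedlings. The double mutant brm-1 ref6-1 (2 libraries) was set against the single mutant brm-1 (2 libraries), so both groups lacked normal BRM and differed by the ref6-1 allele. These 4 libraries come from a series of 27 samples, of which 17 have a peak list and 10 are inputs. The series maps H3K27me3 by chromatin immunoprecipitation and sequencing in 4 genotypes, namely WT, each single mutant (brm-1 or ref6-1) and the double mutant. It also maps GFP-tagged REF6 and BRM, including REF6-GFP in brm plants and BRM-GFP in ref6-1 plants, where a label gives the BRM promoter as the driver of the transgene. All material was whole 14-day-old seedlings grown in long days. Allele numbers are left out below. A gene was called marked when at least 50% of its body lay under H3K27me3 peaks. Gained genes were those marked in the 2 brm ref6 libraries but not in the brm libraries, and lost genes had the opposite pattern. Regions were classed in this way too, and are the peaks of the 4 lists merged where they overlap. There were 13669 regions and 37899 annotated nuclear loci, of which 27444 are protein-coding.

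H3K27me3 is the mark that Polycomb repressive complex 2 places on silent developmental genes. REF6 is a Jumonji-domain demethylase that removes it and binds DNA through its own zinc fingers. BRM is the ATPase of a SWI/SNF remodelling complex that is known to work against Polycomb silencing at many plant genes.

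The brm ref6 lists held more but narrower peaks than the brm lists. The brm lists held 11860 and 12462 peaks covering 10.9 and 10.3 Mb, and the brm ref6 lists held 13045 and 13079 peaks covering 9.83 and 7.28 Mb. Covered length was 2.01 Mb lower on average in brm ref6, and both brm ref6 libraries lay below both brm libraries. The exact two-sided permutation test over libraries gave p = 0.33, the smallest value that 2 libraries against 2 allow. Marked genes numbered 4737 and 4084 in brm and 4568 and 3194 in brm ref6, so the groups overlapped (exact permutation p = 0.667). Without brm ref6 replicate 2, the mean difference in marked genes, brm ref6 minus brm, changed from -529.5 to 157.5. The lists give no read counts, so the depth behind each peak is unknown and the absence of a peak is not the absence of the mark. The labels do not say whether the 2 libraries of a genotype come from separate cultures, so the p-values rest on the spread between these libraries, which may be technical. In whole seedlings, fewer marked cells and less mark per cell cannot be told apart. The BRM and REF6 genes had no H3K27me3 peak in any of the 8 H3K27me3 libraries, and peak lists cannot check the alleles.

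**Figure D1:**
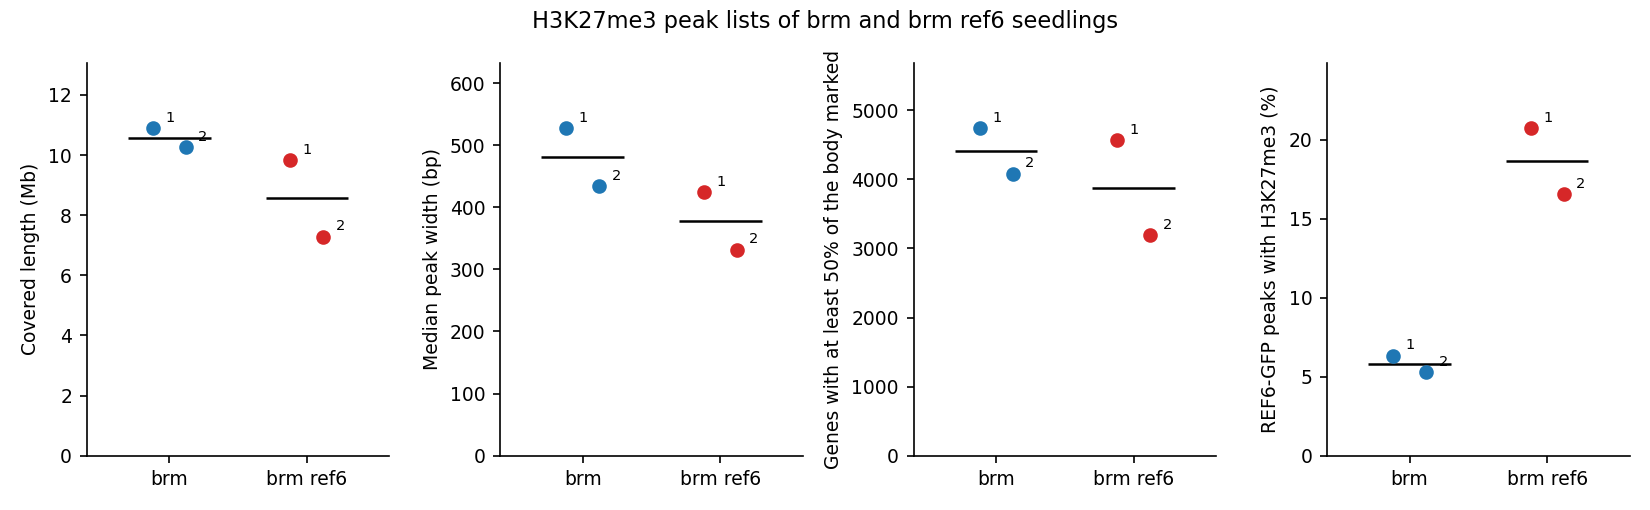
Each panel plots the 4 H3K27me3 lists as points, numbered by replicate, with a line at the mean of each genotype. The panels show covered length (Mb), median peak width (bp), marked genes and the percentage of the 5413 REF6-GFP peaks that overlap H3K27me3. The brm ref6 lists cover less sequence than the brm lists, and a larger share of REF6-GFP peaks.

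Adding ref6 to brm gave 1004 gained regions (7.35% of all regions) and 1134 lost regions (8.3%), while 4469 regions had a peak in all 4 lists. Gained regions had a median width of 708 bp, lost regions 508.5 bp and kept regions 1798 bp. The count of lost regions changed with how the lists were cut, and covered length and peak score were not told apart. When the 4 lists were reduced by score to the covered length of the shortest, 58 regions were lost and 1065 gained. The shortest was brm ref6 replicate 2, which stayed whole, while both brm lists gave up their peaks of lowest score. By construction such a cut can end lost calls and add gained ones. A score of at least 100 left 605 gained and 945 lost regions, and lists cut to an equal number of peaks gave 899 and 1227. Merging over gaps of up to 500 bp left 636 gained and 653 lost. A rule with 1 library on a side is looser by construction: gained regions numbered 2290 and 2908 without brm ref6 replicate 1 or 2, and lost regions 3653 and 3332 without brm replicate 1 or 2 and 2015 without brm ref6 replicate 1. Kept regions were shorter in the double mutant, with median covered lengths of 1546 and 1434 bp in the brm libraries and 1287 and 962 bp in the brm ref6 libraries. In 2627 kept regions (58.8%) both brm ref6 libraries covered less than both brm libraries, and in 342 (7.65%) both covered more. The lower covered length of the brm ref6 lists moved with the lost regions and with the shorter kept regions, and its part in them was not tested further.

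The gained and lost regions differed in where they lay. A protein-coding gene was touched by 85.5% of gained regions, 48.8% of lost regions, 82.7% of kept regions and 67.0% of all regions. The median distance from a gained region to the nearest brm peak was 2554 bp, with 26.9% within 1000 bp and 34.3% beyond 5000 bp. Lost regions lay a median of 1271 bp from the nearest brm ref6 peak, with 43.9% within 1000 bp. The rule keeps each class from overlapping the other genotype's peaks, so the distances are a description, and their difference was not tested.

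Gained regions overlapped REF6 binding sites far more often than lost or kept regions did. Of the gained regions, 549 (54.7%, 95% exact binomial interval 51.5 to 57.8) shared at least 1 bp with a REF6-GFP peak of the first map. The share was 0.529% (0.194 to 1.15) of lost regions, 8.64% (7.83 to 9.50) of kept regions and 11.8% of all regions. These intervals cover counting error over regions, and neighbouring regions are not independent. The REF6-GFP libraries took no part in choosing the regions. With the region's midpoint required to lie inside the REF6-GFP peak, the shares were 43.7% of gained, 0.265% of lost and 2.39% of kept regions. REF6-GFP mapped in brm plants, the background shared by both groups compared here, gave 31.8% and 18.9% of gained regions in its 2 libraries, against 0.353% and 0.441% of lost regions. Kept regions stood at 4.30% and 3.47% in these libraries. A REF6-GFP peak in both of them was found at 205 gained regions (20.4%), 0.353% of lost and 2.93% of kept regions. REF6-GFP was therefore listed at a minority of the gained regions where BRM was mutated, and more often than at lost or kept regions. Overlap with the first BRM-GFP map was lower and closer between the classes, at 12.6% of gained, 5.91% of lost and 8.41% of kept regions.

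**Figure D2:**
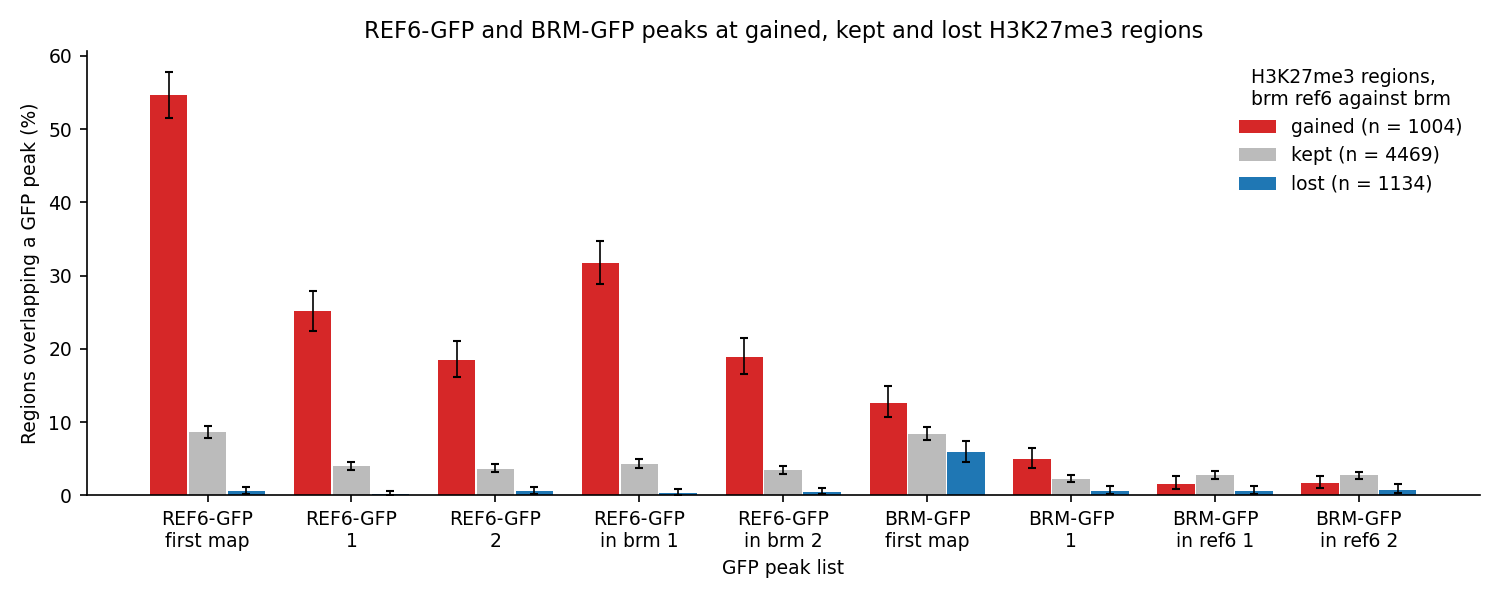
Bars give the percentage of H3K27me3 regions that overlap a GFP peak by at least 1 bp, for each of the 9 GFP peak lists, with 95% exact binomial intervals. Gained regions stand above kept and lost regions in every REF6-GFP list, from 54.7% in the first map to 18.5% in the sparsest overlap, and lost regions stay at 0.529% or less.

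Gained regions at REF6 were wider and scored higher than the other gained regions. Their median width was 886 bp against 519 bp for the 455 gained regions away from REF6. The lower of the 2 authors' scores had a median of 136.81 at REF6 and 78.99 away from it, where the score is MACS's −10 log10 of the peak p-value. In the 549 gained regions at REF6, the REF6-GFP peak centre lay a median of 329 bp from the region's centre, and 59.9% of the peak centres lay inside the region.

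The same pattern was seen from the REF6 sites themselves. Of the 5413 peaks of the first REF6-GFP map, 6.34% and 5.30% overlapped H3K27me3 in the brm libraries and 20.7% and 16.6% in the brm ref6 libraries. The groups did not overlap, and the mean was 12.8 points higher in brm ref6 (exact two-sided permutation p = 0.33, the smallest this design allows). With an H3K27me3 peak in both brm ref6 libraries and neither brm library there were 566 REF6-GFP peaks (10.5%), and with the reverse pattern 17 (0.314%). Another 4181 (77.2%) carried no H3K27me3 peak in any of the 4 lists. Most REF6 sites therefore had no H3K27me3 call in either mutant.

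The difference was larger at REF6-GFP peaks of higher score. The mean difference between genotypes was 7.06 points in the lowest quintile of REF6-GFP peaks by score, then 8.50, 11.5 and 13.2 points, and 23.8 points in the highest quintile. In the highest quintile, the brm libraries stood at 4.62% and 3.79% and the brm ref6 libraries at 31.2% and 24.7%. REF6-GFP peaks that were also found in both libraries made in brm (1178) showed a difference of 23.4 points, against 7.76 points for the 2816 found in neither. REF6-GFP peaks without a BRM-GFP peak (3180) showed 15.7 points and those with a BRM-GFP peak (2233) 8.78 points. The differences between these subsets were not tested, since each subset has only 2 libraries a genotype.

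**Figure D3:**
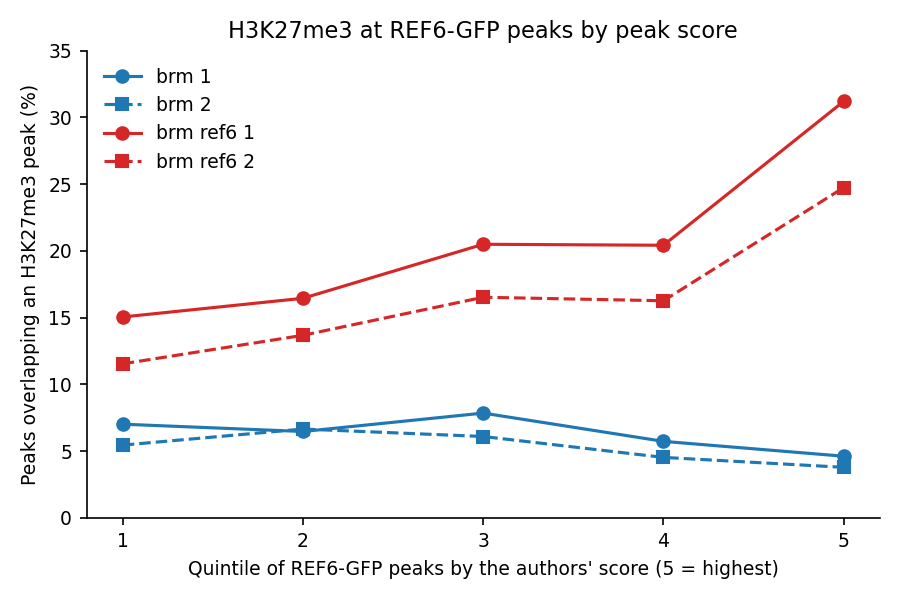
The 5413 REF6-GFP peaks are divided into quintiles by the authors' score, and the vertical axis gives the percentage of each quintile that overlaps an H3K27me3 peak in each library. The brm lines stay at 7.85% or less in every quintile, and the brm ref6 lines reach 31.2% and 24.7% in the highest quintile.

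Around REF6-GFP peak centres, the double mutant had a summit of H3K27me3 where brm had a dip. At the centre, 1.77% and 1.42% of sites lay under an H3K27me3 peak in the brm libraries and 12.2% and 8.15% in the brm ref6 libraries. At 5000 bp to the left the values were 9.18% and 8.57% in brm and 9.0% and 6.72% in brm ref6. At 5000 bp to the right they were 9.53% and 9.03% in brm and 9.62% and 7.06% in brm ref6. Both brm ref6 libraries thus exceeded both brm libraries at the centre, and brm ref6 replicate 2 lay below both at either flank. At the 9767 BRM-GFP peaks away from REF6, H3K27me3 dipped at the centre in both genotypes. Those peaks overlapped H3K27me3 in 5.15% and 4.87% of cases in brm and 3.97% and 2.89% in brm ref6, a difference of -1.58 points (exact permutation p = 0.33). The sign turned with lists of equal covered length (0.00512 points) and with the regions shared by both BRM-GFP libraries made in ref6 (0.768 points).

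**Figure D4:**
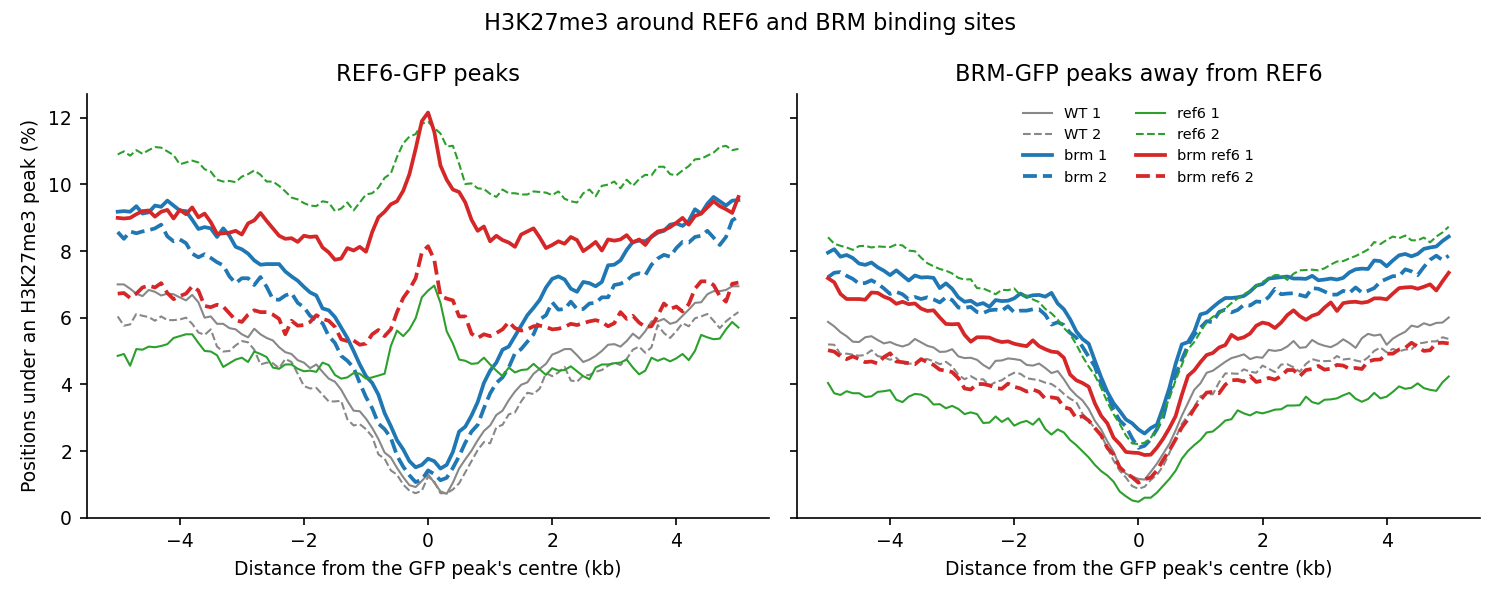
Lines give the percentage of GFP peaks at which a position, up to 5000 bp either side of the peak centre, lies under an H3K27me3 peak, for each of the 8 libraries (solid, replicate 1; dashed, replicate 2). At REF6-GFP peaks the ref6 and brm ref6 lines rise at the centre and the WT and brm lines fall, while at BRM-GFP peaks away from REF6 all 8 lines fall.

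At the level of genes, 421 were gained (1.11% of all loci) and 569 were lost (1.5%). Of the gained genes, 347 are protein-coding and 278 had no H3K27me3 coverage at all in either brm library. Among lost genes, 442 are protein-coding and 141 had no coverage in either brm ref6 library. Many calls lay near the 50% bound, with 152 gained and 323 lost genes having a library within 10 points of it. The lowest value in a marked pair was 50.1% for gained and 50% for lost genes, and the highest in an unmarked pair 49.8% and 49.96%. Without brm ref6 replicate 2 the rule gave 926 gained genes, and lost genes numbered 1320 without brm ref6 replicate 1 and 1046 without brm replicate 2. Coverage of at least 80% gave 183 gained and 517 lost genes, and any overlap 864 and 562. A score of at least 100 gave 324 gained and 531 lost genes. With the lists reduced to equal covered length, 523 genes were gained and 245 lost. Of the 421 gained genes 372 (88.4%) were gained again, and of the 569 lost genes 126 (22.1%) were lost again. As with the regions, this cut trims both brm lists and leaves brm ref6 replicate 2 whole. The 2 shares are therefore not a like comparison of how firm the classes are.

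REF6-GFP lay in the body of 273 gained genes (64.8%, 95% exact binomial interval 60.1 to 69.4). It lay in 11 lost genes (1.93%, 0.969 to 3.43), in 3.52% of the 2531 genes marked in all 4 libraries and in 18.5% of all loci. A REF6-GFP peak in both libraries made in brm was found in 105 gained genes (24.9%), in 0.351% of lost genes and in 3.98% of all loci. BRM-GFP was listed in the body of 13.5% of gained genes and 9.84% of lost genes. These shares lay below the 27.7% of all loci and above the 5.65% of genes marked in all 4 libraries.

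The WT and ref6 libraries, which the rule did not use, separated the gained genes in the same direction. Of the 421 gained genes, 12 and 5 were marked in the WT libraries and 264 and 404 in the ref6 libraries. The mean share was 2.02% in WT and 79.3% in ref6 (exact permutation p = 0.33, the smallest possible). The ref6 libraries differed in peak width, with medians of 289 and 1575 bp, and the library with wide peaks marked more of these genes. Both ref6 libraries marked 260 gained genes and neither marked 13. Of the lost genes, 288 and 211 were marked in WT and 18 and 255 in ref6. The first ref6 library thus lay below both WT libraries and the second between them. Lost regions had a peak in 45.1% and 41.3% of cases in WT and in 8.64% and 16.6% in ref6, so there both ref6 libraries lay below both WT libraries (difference -30.6 points, exact permutation p = 0.33).

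The rule applied to ref6 against WT, which shares no library with this comparison, called 425 genes gained (1.12%) and 141 lost (0.372%). It shared 250 gained genes, 59.4% of the brm ref6 list and 58.8% of the ref6 list. It shared 55 lost genes, 9.67% of the brm ref6 list and 39.0% of the ref6 list.

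Of 179 listed genes, which include growth and stress regulators as well as chromatin and housekeeping genes, 6 were gained (3.35%, against 1.11% of all loci). Any coverage in the 4 lists was held by 97 of these 179 genes and by 8567 of the 37899 loci. Covered genes were thus commoner among the listed genes, and the shares are not adjusted for it. CUC1, a NAC transcription factor that sets organ boundaries, had no coverage in either WT or brm library and was covered over 100% and 98.8% of its body in brm ref6. The difference was 99.4 points (SE 0.982, limma adjusted p = 0.00112), and the gained region ran over chr3:5109505-5111781 (TAIR10) with a REF6-GFP peak of score 593.78. GA20OX2, a gibberellin 20-oxidase, had no coverage in brm and 100% and 91.8% in brm ref6 (difference 95.9 points, SE 3.80, limma adjusted p = 0.0186). Both genes therefore passed from no call to nearly full coverage in both double-mutant libraries. NYE2, a homologue of the chlorophyll degradation protein NYE1, had 0% in brm and 83.7% and 73.5% in brm ref6 (limma adjusted p = 0.0342). YUC3, a flavin monooxygenase of auxin synthesis, had 0% in brm and 61.9% and 50.7% in brm ref6 (limma adjusted p = 0.0613). HSFA7A, a heat shock factor, had 0% in brm and 98.6% and 58.5% in brm ref6 (limma adjusted p = 0.179). CBF1, a cold-response activator, had 0% in brm and 52.2% and 62.4% in brm ref6 (limma adjusted p = 0.0538). The last 3 met the rule without passing limma's threshold of 0.05, and all 6 had a REF6-GFP peak in the body.

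Another 3 listed genes passed limma without meeting the rule. DWF4, a rate-limiting enzyme of brassinosteroid synthesis, was covered over 51.8% and 48.9% in brm ref6 and 0% in both brm libraries (limma adjusted p = 0.011). CYP707A1, an abscisic acid 8′-hydroxylase, was covered over 43.7% and 42.2% against 0% (limma adjusted p = 0.00681). CBF3, which neighbours CBF1, was covered over 52.0% and 49.96% against 0% (limma adjusted p = 0.00698). All 3 carried REF6-GFP peaks, and none had coverage in WT.

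Several gained genes lay side by side. In runs of neighbouring gained loci there were 116 genes (27.6%), with the longest run of 5 from AT5G55330 to AT5G55370, against 97 lost genes (17.0%) in runs. XTH12, XTH13 and XTH25, which encode xyloglucan-modifying enzymes of the cell wall, shared the gained region chr5:23300263-23306862. XTH13 had 0% in both brm libraries and 100% in both brm ref6 libraries (limma adjusted p = 0.0008). XTH25 had 100% and 95.5% and XTH12 100% and 85.5% in brm ref6, with 0% in brm for both (limma adjusted p = 0.00772 and 0.0449). The 3 neighbours were thus gained together, and REF6-GFP peaks scored 3100.0 at both XTH12 and XTH13. GSTF7 and GSTF6, glutathione S-transferases, shared the gained region chr1:658556-662230, with 100% and 89.7% of GSTF7 and 82.3% and 79.6% of GSTF6 covered in brm ref6. Both had 0% in brm (limma adjusted p = 0.027 and 0.00441), and the adjacent GSTF5 moved from 32.8% and 14.8% to 98.2% and 96.4% (limma adjusted p = 0.0781). CYP71B18 and CYP71B17, cytochrome P450 loci of which the former is annotated as a transcribed pseudogene, shared chr3:9568068-9572147, with 100% and 91.7%, and 100% and 83.3%, covered in brm ref6 and 0% in brm.

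By gene family, gained members were 6 of 40 glutathione S-transferases, 4 of 30 XTH genes, 6 of 81 NAC genes and 2 of 34 ERF and DREB genes. Lost members of the same families numbered 0, 2, 3 and 1. In the same order, limma called 4, 3, 1 and 2 members higher and 0, 1, 3 and 0 lower. For the NAC genes the 2 methods thus leaned in opposite directions. The 50% rule called 1.11% of all loci gained and 1.5% lost, and the families were not tested as sets. Members with any coverage numbered 17, 19, 48 and 12 in these families, against 8567 of the 37899 loci. The counts are not adjusted for this. ERF1, an activator of ethylene and jasmonate responses, had 0% in brm and 93.6% and 98.7% in brm ref6 (limma adjusted p = 0.00966). EXPA16, an expansin, had 0% in brm and 89.1% and 88.5% in brm ref6 (limma adjusted p = 0.00112). NAC004 had 0% in brm and 94.0% and 88.7% in brm ref6 (limma adjusted p = 0.011). These 3 examples had no coverage in brm, as 278 of the gained genes did, and each had a REF6-GFP peak in its body.

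The gained genes with the highest peak scores were MDHAR, AT5G53710, AT5G53720, GSTF7, GSTF6, AT1G06340, AT3G59260, AT3G59270, AT1G51210 and AT3G12880. AT5G53710 and its neighbour AT5G53720 had 0% in brm and between 96.9% and 100% in brm ref6. MDHAR, labelled as a monodehydroascorbate reductase, differed from them in that its region had a peak in all 4 lists. Its coverage was 45.5% and 25.1% in brm and 94.0% and 89.5% in brm ref6 (limma adjusted p = 0.125). Among the 10 gained regions of highest score, REF6-GFP of the first map was absent from those at AT4G05250 and AT4G19950.

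**Figure D5:**
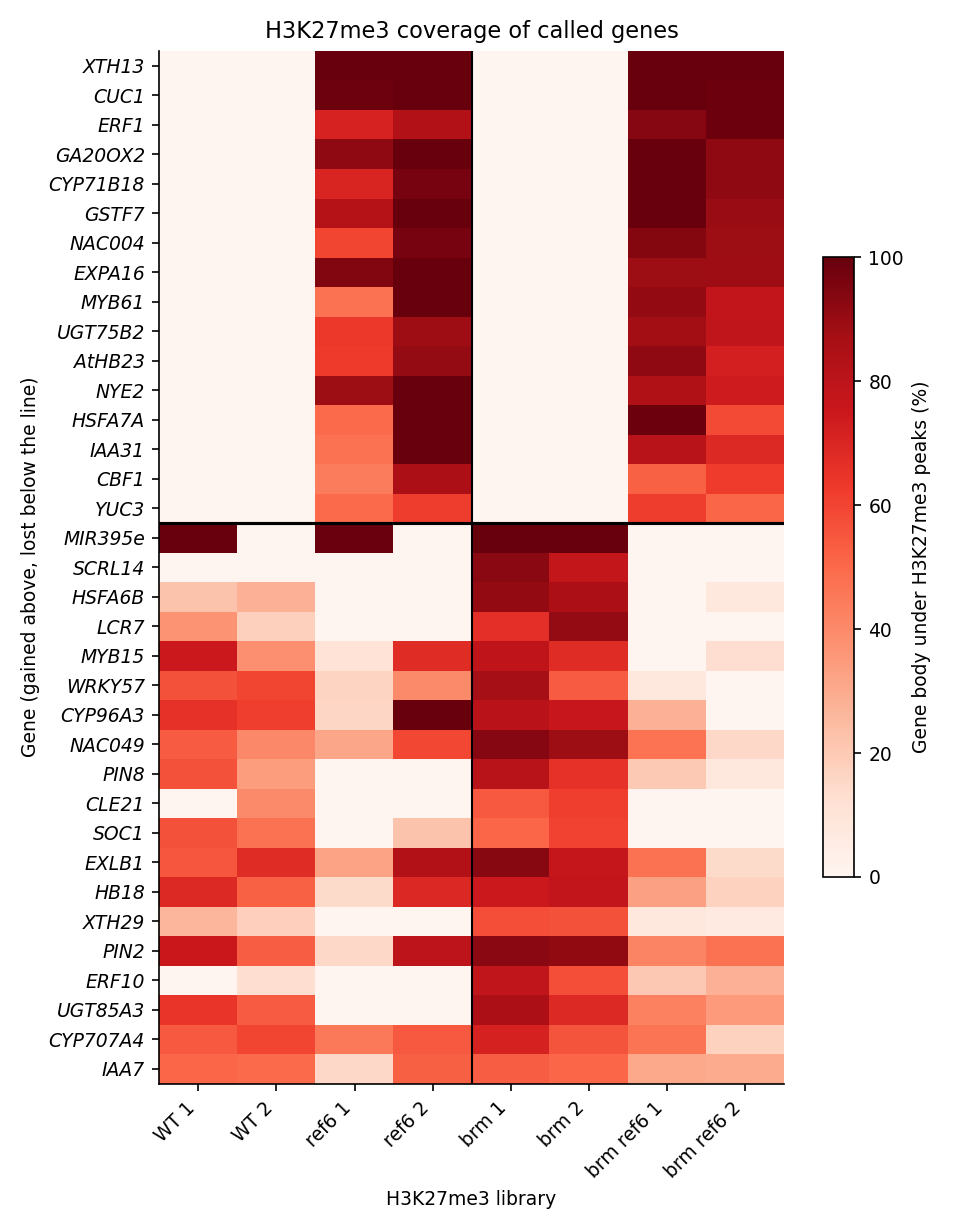
The heat map gives the percentage of each gene's body under H3K27me3 peaks in the 8 libraries, for the 16 gained and 19 lost genes that are list members or the family member of largest difference. The gained genes have no coverage in brm and WT, and the lost genes keep between 0% and 47.4% in brm ref6.

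Lost genes included 5 of the 179 listed genes (2.79%, against 1.5% of all loci). As above, 97 of the 179 had any coverage, against 8567 of the 37899 loci, and the share is not adjusted for it. SOC1, a MADS factor that promotes flowering, was covered over 51.1% and 60.4% in brm and 0% in both brm ref6 libraries (difference -55.7 points, SE 4.29, limma adjusted p = 0.05, just short of the threshold). Its lost region, chr2:18808707-18810893, had the highest score of all lost regions and held a BRM-GFP peak of score 465.16 and no REF6-GFP peak. SOC1 was covered over 56.4% and 47.5% in WT and 0% and 22.3% in ref6, below both WT libraries. HSFA6B, a heat shock factor, was covered over 90.7% and 84.9% in brm and 0% and 8.41% in brm ref6 (limma adjusted p = 0.032). PIN2, the auxin efflux carrier of the root, was covered over 92.7% and 91.1% in brm and 41.5% and 47.4% in brm ref6 (limma adjusted p = 0.0354). HSFA6B and PIN2 passed limma, although PIN2 kept a peak over part of its body. PIN8, another auxin transporter, was covered over 80.9% and 65.6% in brm and 20.2% and 8.01% in brm ref6 (limma adjusted p = 0.109). CYP707A4, an abscisic acid 8′-hydroxylase, was covered over 71.3% and 55.7% in brm and 46.6% and 17.1% in brm ref6 (limma adjusted p = 0.381).

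Other lost genes were found in several of the families counted, some of which have short members. Lost members were 15 of 326 MIR loci, 4 of 94 defensin-like PDF and LCR genes, 3 of 30 CLE peptide genes, 3 of 28 SCRL genes, 4 of 67 WRKY genes and 10 of 121 MYB genes. The rule called 1.5% of all loci lost, and these families were not tested as sets. In the same order, 98, 29, 21, 7, 38 and 81 members had any coverage, against 8567 of the 37899 loci. These counts are not adjusted for it. Gained members of these families numbered 0 except for 2 MYB genes. MIR2111b was covered over 100% in both brm libraries and 0% in both brm ref6 libraries (limma adjusted p = 0.0008), with 0% and 100% in ref6. MYB113, an activator of anthocyanin synthesis, had 59.4% and 61.0% in brm and 0% in brm ref6 (limma adjusted p = 0.00356). NUB, a zinc-finger gene related to JAGGED, had 100% in both brm libraries and 0% in brm ref6 (limma adjusted p = 0.0008). NUB was among the 11 lost genes with a REF6-GFP peak, and its lower brm score of 55.4 lay close to the minimum of 50 in the lists. Among the 10 lost regions of highest score were those at SOC1, at JAZ10, a repressor of jasmonate signalling, and near LOG7, a cytokinin-activating enzyme.

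Limma on gene-body coverage called 178 genes higher (2.52%) and 195 lower (2.76%) in brm ref6 among the 7066 with a mean coverage of at least 10%. The coverage values are bounded, and 49 of the 373 called genes had identical values within each genotype. The p-values of those 49 rest on the spread that limma shares over genes, not on their own libraries. Leaving out a library moved the counts, from 85 higher without brm replicate 2 and 107 without brm replicate 1 to 463 and 847 without brm ref6 replicate 1 or 2. Lower genes numbered 392 and 539 without brm replicate 1 or 2 and 902 and 490 without brm ref6 replicate 1 or 2. On simulated data the test missed most planted shifts, so genes it did not call are not shown to be alike. The largest differences were 100 points, shared by 24 higher and 25 lower genes. The first 5 by locus each way were gained AT1G02210, AT1G06103, AT1G09683, AT1G21866 and bZIP48 and lost AT1G05407, AT1G05807, AT1G08807, NUB and AT1G21973.

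Many listed regulators met neither call. No gene was gained, lost or called by limma among the 15 floral identity, 8 seed maturation, 12 phase change, 9 light signalling and 13 Polycomb and H3K27 demethylase genes. With 1.11% of all loci gained and 1.5% lost, counts of 0 in lists of this size are near the background. Of the floral identity genes, 13 and 13 were marked in brm and 13 and 13 in brm ref6. The 8 housekeeping and 8 SWI/SNF remodeller genes had no coverage in any of the 4 lists.

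Whether adding ref6 had another effect in brm than in WT was tested by limma's interaction term over the 8 libraries. It called 12 of 6816 genes lower (0.176%) and 0 higher (0.0%), with 290 at an unadjusted p under 0.05. Of the 12, 11 were covered in both brm libraries and in no WT or ref6 library, among them NIMIN1 and 5 MIR loci. With no coverage in WT, these 11 could not lose any when ref6 was added to WT. At them the term cannot show that the ref6 effect depends on the background. The count depended on ref6 replicate 2, whose peaks are wide. Without it, 203 genes were higher and 42 lower, and all 12 were called again.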

How the data were processed

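Peaks were called with MACS 1.4 after alignment with Bowtie2 2.2.5 to TAIR10, per the submitters' processing notes. Each deposited list gives a position and a score per peak, and the authors' score has the form of MACS's −10 log10 of the p-value with a minimum of 50. For read depth, duplicates, filters and the pairing of inputs, no label or file gives a statement. Gene bodies came from RefSeq's TAIR10.1 table, whose nuclear chromosomes were taken to match TAIR10. Its coordinates are not printed.

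From the lists, the percentage of each gene body under peaks and the merged regions were computed (Python 3.11.15, pandas 2.3.3). An overlap needed at least 1 bp. Limma 3.58.1 in R 4.3.3 (robust, Benjamini-Hochberg over all genes tested, threshold 0.05) was fitted to percent coverage in the 4 libraries, and to all 8 for the interaction. Exact permutation tests over libraries (SciPy 1.17.1) were run for 10 measures and are unadjusted. Exact binomial intervals (95%) cover counting error alone. 

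The limma step was tested on simulated data. The first simulation, with moderate shifts on top of a gene's own coverage, was recovered in no case. Larger shifts, and shifts planted on genes with no brm coverage, were simulated after that was seen and were recovered in a minority of cases. No unmoved gene was called, but these were built with equal group means apart from the bounds on coverage. The simulations therefore cannot measure a rate of false calls. The test was kept and is treated as secondary to the 50% rule.

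The comparison, gene lists and families were chosen with earlier results of these data known. A hand map for 7 listed symbols was made after the files were opened. The analyses of REF6-GFP at gained regions, of distances, of score quintiles and of equal covered length were added after seeing the data. Named genes are list members called by either method, the 10 of highest lower score and the 5 of largest limma difference each way, the 10 top regions each way, and up to 3 examples a family. The list and family members matched 179 of 184 listed symbols for 15 lists, and 22 families were counted, of which 1 is not reported here. The genes of the longest run and the genes marked in no ref6 library were named after their values were seen. Alternatives were stricter and looser bounds, score minimum, list length, merging, GFP list, transformation, filter, replicate block and each library left out.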

Additional observations from a re-analysis of the deposited data

Results flagged for a closer look

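Limma's interaction term passed its threshold at 12 genes. The term is the brm ref6 minus brm difference less the ref6 minus WT difference in percent of the gene body covered. The term was -100 points at AT1G08807, AT2G02026, MIR167c, AT4G15460, MIR169b, MIR166e and MIR8167e. It was -96.63 at NIMIN1, -95.21 at AT5G43064, -94.97 at AT1G05813, -80.46 at MIR156i and -78.68 at AT5G03385. NIMIN1, a protein that interacts with the salicylic acid co-activator NPR1, was covered over 95.5% and 97.8% in brm and 0% in the other 6 libraries. AT2G02026 was the exception to the pattern of calls in brm, with 100% in both ref6 libraries and 0% in the other 6. The rest had 0% in both WT libraries, so adding ref6 to WT could not lower their coverage. For them the term restates lower coverage in brm ref6 than in brm, and cannot show that the ref6 effect depends on the background. The 12 genes were short, from 75 to 673 bp with a median of 198 bp against 1796 bp over all loci, so that a single narrow peak covers them. The part of gene length in these calls was not tested.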

How the results depend on the processing

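The higher share of REF6-GFP peaks with H3K27me3 in brm ref6 kept its direction in all 11 alternatives run, with differences of 6.59 to 18.4 points. The replicate block and leaving out a library were among them. Those could not change the direction, since the groups did not overlap and the block is balanced, so they add no support. Counts moved more. Gained genes numbered 864 with any overlap, 183 at 80% of the body and 434 to 926 with a library left out. Lost genes numbered 562 with any overlap, 517 at 80% of the body and 245 at equal covered length. With a library left out they numbered 634 to 1320. Gained regions numbered 605 at a score of at least 100, 636 with gaps of up to 500 bp merged and 1129 to 2908 with a library left out. Lost regions numbered 945 at a score of at least 100, 1227 with lists of equal peak number and 58 at equal covered length. They numbered 653 with gaps merged, 1864 with at least 50% of the region covered and 1393 to 3653 with a library left out. The share of gained regions at REF6-GFP was 62.6% at a score of at least 100, 45.5% at equal covered length (0.0% of lost regions), 64.9% with gaps merged, 43.7% by midpoint and 37.6% to 50.3% with a library left out. Limma gave 295 lower genes after an arcsine square root, and with a library left out 85 to 847 higher and 392 to 902 lower. The replicate block gave 0 higher and 0 lower genes by limma, with a lowest adjusted p of 0.0606 and 1549 genes at an unadjusted p under 0.05. Deviations of same-numbered libraries correlated at 0.0831 over genes, and the numbers were not taken as a pairing. That correlation cannot see a shift shared by all genes. Replicate 1 covered more than replicate 2 in brm (10.9 and 10.3 Mb) and in brm ref6 (9.83 and 7.28 Mb), so a pairing is not excluded. The interaction called 245 genes without ref6 replicate 2. The difference at BRM-GFP peaks away from REF6 reversed to 0.00512 points at equal covered length and 0.768 with the ref6 BRM-GFP regions. The difference in marked genes, brm ref6 minus brm, ranged from -1216.5 to 157.5 with a library left out and reversed without brm ref6 replicate 2. Over 101 named genes and the alternatives that keep all libraries, 344 of 505 comparisons kept the call, 153 lost it, 3 gained it and 5 reversed. Leaving out a library loosens the rule and cannot end a call. The 5 reversals came at equal covered length, to 14.0 points at ERF10, 16.2 at NAC010, 6.22 at WRKY10, 5.20 at IAA7 and 21.3 at LCR23. The cause was not tested. Unknown depth limits every absence of a peak.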

Other observations

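A small set of gained genes had no marked ref6 library. Of the 13, MGL, a methionine gamma-lyase, was covered over 34.5% and 32.8% in brm, 81.3% and 61.9% in brm ref6 and 0% in the WT and ref6 libraries. AT4G39790 had 0% in WT and brm, 28.7% and 33.3% in ref6 and 90.4% and 76.0% in brm ref6, with a REF6-GFP peak of score 1295.79. AT3G44940 had 0% in WT and brm, 13.3% and 0% in ref6 and 89.9% and 61.6% in brm ref6. The interaction term passed its threshold at none of these 3 genes (limma adjusted p = 0.911, 0.386 and 0.541), so a difference between the backgrounds is not shown. These genes were named after their values were seen.

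The 148 gained genes without a REF6-GFP peak in the body and the 273 with one were compared, with no test, in the libraries that did not choose them. Those without were marked in 60.1% and 94.6% of cases in ref6 and 3.38% and 1.35% in WT, and those with in 64.1% and 96.7% in ref6 and 2.56% and 1.10% in WT. By regions, again with no test, gained regions at REF6-GFP had a peak in 78.1% and 78.3% of cases in ref6 and 1.09% and 1.64% in WT, and those away from it in 52.3% and 60.2% in ref6 and 5.71% and 5.27% in WT.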
